A study of Mus musculus with 12 samples.

Results

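The widest SOX2-bound regions of asynchronous mouse embryonic stem cells were taken from the list of regions called on the pooled ChIP and input libraries. After entries with the same chromosome, start and end were merged, regions of at least 550 bp were kept. This gave 559 of 10351 regions (5.40%), called wide regions here; the other 9792 are called narrower. The members were chosen by their measured width, so widths and what goes with width are given as a description.

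The 12 libraries form 4 groups of 3 replicates. Asynchronous E14 cells, an established mouse embryonic stem cell line, gave 1 group of ChIP with the SOX2 antibody Y-17 and 1 of input; mitotic E14 cells gave the same pair. Both conditions shared the medium: 10% serum, LIF, 3 μM CHIR99021, which blocks GSK3, and 0.8 μM PD184352, which blocks MEK. Chromatin was fixed with formaldehyde and sonicated. Mitotic cells were also held overnight in nocodazole, a microtubule poison, and sorted for the mitotic histone mark H3S10p. The labels name 1 cell line and no animals. The files hold positions only: 84 mitotic regions and the asynchronous list, with 1 list per condition. Replicates have no values of their own, depth is unknown, and marker expression was not measured. No difference below was tested against replicate spread; shares carry exact (Clopper-Pearson) 95% intervals that cover counting error only. Positions are on mm10 and counted from 1.

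SOX2 is an HMG-box transcription factor that keeps embryonic stem cells pluripotent. It bends DNA at short sites such as CATTGT and, with the POU factor OCT4 (Pou5f1), occupies a composite element in which a SOX site stands next to the POU site ATGCAAAT. Many enhancers of the pluripotency genes, those of Sox2, Pou5f1 and Nanog among them, carry such elements. A wide region in a list of called peaks can hold several summits of signal, and the peak caller then adds a letter to each name.

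Sequence could be read where a wide region lay over a gene start, since the sequences used here are promoter windows. Promoter windows were available for 17492 of 21887 protein-coding genes (79.9%), and genes without one lay on several chromosomes. Regions over the missing starts could not be counted. The chromosomes whose starts were used hold 540 wide and 9448 narrower regions. Of these wide regions, 10 (1.85%, interval 0.892 to 3.38%) covered an annotated start of a protein-coding gene, against 187 narrower regions (1.98%, 1.71 to 2.28%). The genes included Sp5, a zinc finger factor of the Wnt response, Nrarp, a feedback regulator of Notch, and Pipox, a peroxisomal oxidase. They also included Stk38, a kinase of the NDR family, Trpm1, a cation channel, Tia1, an RNA-binding protein of stress granules, and Dync1i2, a dynein subunit. The start of a gene of another biotype was covered by 7 wide regions, of which 1, at Gm5148, also covered a protein-coding start. This makes 16 regions in all (2.96%, interval 1.70 to 4.77%, against 2.67% of the narrower). A wide region covers a start more often by its size alone. Median widths were 621 bp for wide and 281 bp for narrower regions, and the shares of regions over a start were not corrected for this. The 250 bases before the start are printed for Pipox, Nrarp and Sp5, where they lay wholly inside a wide region and outside every annotated gene. Capitals mark exact matches, on either strand, to the SOX motifs CATTGT and CTTTGT, the POU motif ATGCAAAT, or the composite of CATTGT, any 1 base and ATGCAAAT. A shortened composite, without the first base of CATTGT, was also marked. Sequences are from RefSeq for GRCm38.p6 (mm10) and run 5′ to 3′ on the strand of the gene.
Pipox, chr11:77893873-77894122, minus strand: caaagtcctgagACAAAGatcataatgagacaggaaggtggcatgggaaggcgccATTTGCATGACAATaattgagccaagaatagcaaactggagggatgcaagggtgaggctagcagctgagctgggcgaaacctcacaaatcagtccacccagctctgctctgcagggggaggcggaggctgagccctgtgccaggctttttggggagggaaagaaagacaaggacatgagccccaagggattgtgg
Nrarp, chr2:25180508-25180757, plus strand: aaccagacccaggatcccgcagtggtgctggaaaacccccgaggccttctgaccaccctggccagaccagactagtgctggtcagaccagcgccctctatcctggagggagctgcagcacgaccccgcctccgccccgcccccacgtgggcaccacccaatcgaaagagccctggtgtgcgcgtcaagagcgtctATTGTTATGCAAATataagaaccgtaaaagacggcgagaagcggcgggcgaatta
Sp5, chr2:70474673-70474922, plus strand: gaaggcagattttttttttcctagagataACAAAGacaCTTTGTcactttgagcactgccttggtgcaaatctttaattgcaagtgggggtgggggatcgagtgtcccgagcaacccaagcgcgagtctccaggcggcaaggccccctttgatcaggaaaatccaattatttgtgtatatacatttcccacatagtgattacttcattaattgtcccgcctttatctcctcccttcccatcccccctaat

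The window of Sp5 held CTTTGT on both strands, with first bases 221 and 212 bases before the start, and no POU motif. That of Nrarp held the POU motif, and the shortened composite began 55 bases before the start. That of Pipox held the shortened composite on the strand opposite to the gene, from 195 bases before the start, and CTTTGT on the same opposite strand. The shortened form was searched only after these sequences had been read. It overlaps the POU motif by construction.

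The shortened composite was rare in promoters. It occurred in 6 of 32851 windows of 250 bases (0.0183%, interval 0.00670 to 0.0397%), and the 6 windows held 5 distinct sites, because 2 windows of Exoc1 share 1. Of these 5 sites, 3 lay under a wide region, none under a narrower region, and 2 under no region. The sites of Nrarp and Pipox were in the windows from which the form was chosen. Only that of Gm34201 is a further site under a wide region. The sites are shown on the strand that carries the motif, in capitals, with up to 8 bases on each side.
Nrarp, chr2:25180703-25180716: gagcgtctATTGTTATGCAAATataagaac
Pipox, chr11:77894054-77894067: gctcaattATTGTCATGCAAATggcgcctt
Gm34201, chr15:84622224-84622237: ggcctccgATTGTCATGCAAATcttaggct
Gm38966, chr7:24876730-24876743: tgttatgaATTGTGATGCAAATctgttttc
Exoc1, chr5:76529063-76529076: ttatcaATTGTAATGCAAATatctgata

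The first 3 of these lay in wide regions of 577, 767 and 637 bp. Gm34201 is a long non-coding RNA gene, and the nearest protein-coding gene of its region is Prr5, a subunit of the mTOR complex that phosphorylates AKT. The site of Gm38966, another non-coding gene, was 2.77 kb from the nearest asynchronous region, and that of Exoc1, a subunit of the exocyst, 33.7 kb. The full composite was in none of the 32851 windows. Over genes of every biotype, the POU motif was in 3 of 10 windows wholly inside a wide region (30%, interval 6.67 to 65.2%), in 8 of 63 inside a narrower region (12.7%, 5.65 to 23.5%) and in 1.60% of all windows. A SOX motif, CATTGT or CTTTGT, was in 6 of 10 (60%, 26.2 to 87.8%), 41 of 63 (65.1%, 52.0 to 76.7%) and 25.2% of all windows. CATTGT was in 1 of the 10 and in 24 of the 63 (38.1%), while CTTTGT was in 5 of the 10 and 22 of the 63 (34.9%). A window with both motifs counts for each. For the POU motif and both SOX motifs the intervals of wide and narrower regions overlapped. The shortened composite was in the 3 windows with a POU motif of the 10 (30%, 6.67 to 65.2%) and in 0 of 63 (upper limit 5.69%), but it had been chosen from these windows, and no test was run.

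The wide regions had a median width of 621 bp (quartiles 576 and 694.5 bp), and 135 of them were 700 bp or wider. They made up 11% of the covered bases, 365.6 of 3314 kb. Of the others, 231 were 550 to 599 bp and 193 were 600 to 699 bp wide. Widths ran on without a gap at the minimum. At 550 bp were 8 regions, among them those nearest to Pgap1, Dync1i2, Steap2, Zmat4 and Klhl31, and at 549 bp were 3, nearest to Ttc39b, Eea1 and Il6st, the receptor subunit shared by LIF and interleukin 6. At 548 bp, regions near Pard3b and Bcas2 were among the 4 left out.

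At the top of the list stood the region over Sox2 itself, 2061 bp wide, followed by 1186 bp inside Cdx2, which specifies trophectoderm. Beyond the 15 widest, the order went on with Epp13 (941 bp, inside the gene), Rpap3 (937 bp), the choline transporter gene Slc44a1 (929 bp), Gm36722 (911 bp) and the retinol dehydrogenase gene Rdh10 (899 bp, inside). The clock repressor gene Cry2 held a region of 889 bp, and one of the same width lay 1.64 kb before the start of Mycn, a Myc family factor. Grin2b, a subunit of the NMDA receptor, held one of 887 bp, and Smarca2, an ATPase of the BAF remodelling complex, one of 882 bp at 1.99% of the way from its start. D630039A03Rik, Adgrl2, Gm44812, Erc2, Epha7, an ephrin receptor, and Dlgap1 completed the 30 widest, down to 851 bp. Of these 30, 14 had their midpoint inside a gene, 5 within 50 kb of one, 11 further away and none at a gene end.

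Summit letters went with width. A letter was in the name of 152 wide regions (27.2%, interval 23.5 to 31.1%) and 163 narrower ones (1.66%, 1.42 to 1.94%), against 3.04% of all regions. The share was 11.7% at 550 to 599 bp, 22.3% at 600 to 699 bp and 60.7% (52.0 to 69.0%) at 700 bp or more. A wider region has room for more summits, so this count is tied to how the regions were chosen. There were 7 wide regions with 3 or more listed entries. Sox2 had 5, and the regions nearest to Slc2a1, Epp13, Cadps, Apobec3, Magi1 and Hs6st1 had 3 each. These 6 regions were 666 to 985 bp wide. In 43 wide regions (7.69%) a letter was present but only 1 entry was listed, as for Cry2 and Smarca2, which had the letter b alone; the other summit of such a region was not in the list.

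**Figure D1:**
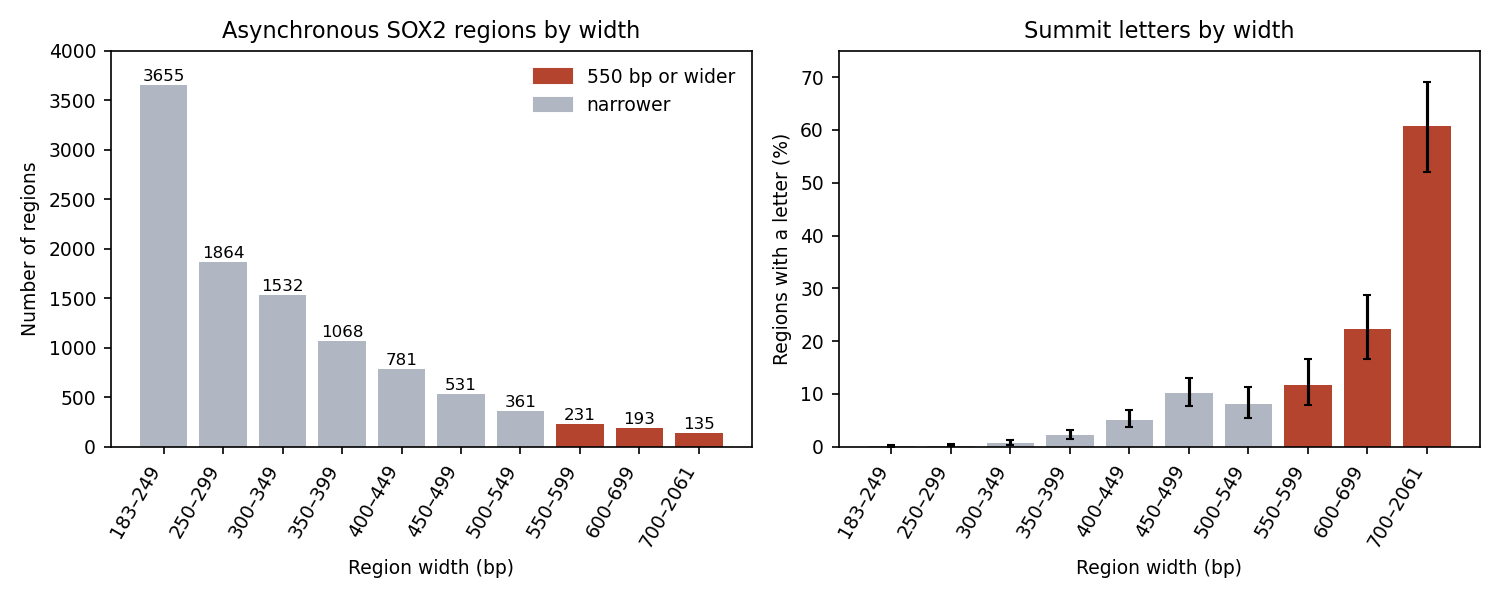
Number of asynchronous regions (left) and share of regions with a summit letter in the name (right, percent) in 10 classes of width in bp. Bars in red are regions of 550 bp or more and grey bars narrower ones; error bars are exact 95% intervals. The share with a letter is 60.7% in the widest class and 11.7% in the class from 550 to 599 bp.

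The share at gene ends was lower, and the share far from genes higher, among wide than among narrower regions; neither difference was tested, and the intervals of the second overlapped. Locations refer to the span of protein-coding genes, from one end to the other, and to the midpoint of a region. Midpoints within 1 kb of either end were classed as gene end. All others were classed as inside, outside by at most 50 kb, or further out. Gene ends held 27 wide regions (4.83%, interval 3.21 to 6.95%) and 746 narrower ones (7.62%, 7.10 to 8.16%), against 7.47% of all regions; of narrower regions of at least the median width, 6.63% were at gene ends, which is within the interval of the wide regions. Inside genes were 244 (43.6%, 39.5 to 47.9%), against 44.3% of the narrower and 44.2% of all regions. Up to 50 kb outside were 149 (26.7%, 23.0 to 30.5%), against 27.2% of the narrower and 27.1% of all. Further than 50 kb from any gene were 139 (24.9%, 21.3 to 28.7%), against 20.9% (20.1 to 21.8%) of the narrower and 21.1% of all. When every annotated gene was counted and not only the protein-coding ones, the last class held 6.26% of wide and 5.75% of narrower regions.

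Over classes of width, the share at gene ends was 8.51% (interval 7.62 to 9.46%) below 250 bp, 4.99% (2.98 to 7.77%) at 500 to 549 bp and 3.70% (1.21 to 8.43%) at 700 bp or more. The share further than 50 kb from a gene was 19.6% (18.3 to 20.9%), 25.2% and 30.4% (22.8 to 38.9%) in the same classes. In all 4 locations, the class just below 550 bp had an interval that overlapped those of the classes above. For regions outside their nearest gene, the median distance to that gene was 42.3 kb (quartiles 10.0 and 118 kb, 300 wide regions) and 30.4 kb (7.74 and 112 kb, 5089 narrower regions).

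**Figure D2:**
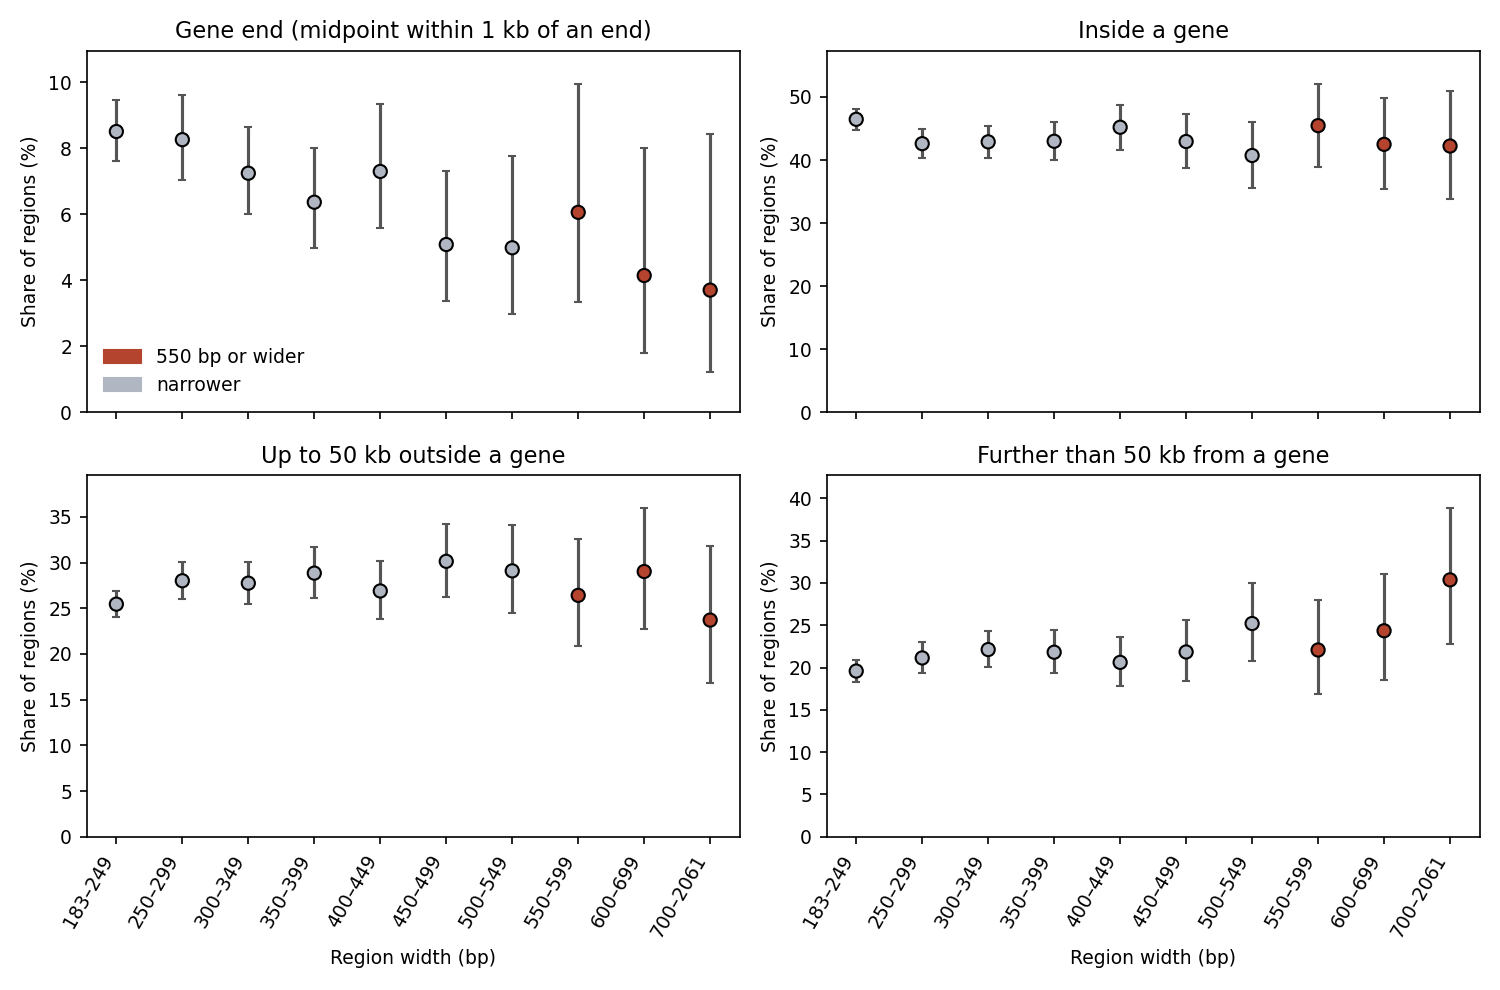
Share of asynchronous regions (percent) in each of 4 locations against protein-coding gene spans, by class of region width in bp. Points are shares, red for 550 bp or more and grey for narrower, and bars are exact 95% intervals. The share at gene ends is 8.51% in the narrowest class and 3.70% in the widest.

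A strand was known for the nearest gene of 444 wide regions. Among 215 wide regions inside such a gene, 43 (20%, interval 14.9 to 26.0%) lay in the first 25% of the gene from its start, against 1009 of 3684 narrower regions (27.4%, 26.0 to 28.9%). The last 25% held 26.0% of the wide and 25.7% of the narrower regions. Smarca2 was among the genes with a wide region close to the start, while Pigl, an enzyme of GPI anchor synthesis, and Atp8a1, a phospholipid flippase, had theirs 91.8% and 93.3% of the way along. Of 229 wide regions outside the gene, 129 (56.3%, 49.6 to 62.8%) were before the start, as were 57.0% of the narrower ones. The length of the gene around a region was also compared, with a gene counted once for each region it held. The median was 138.7 kb (quartiles 44.1 and 277.8 kb) over 259 wide regions and 117.9 kb (45.4 and 284.1 kb) over 4703 narrower ones.

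Of all protein-coding genes, 777 (3.55%) had the midpoint of a wide region within 50 kb of their span. Of 34 listed factors of the pluripotency network, 11 did (32.4%, interval 17.4 to 50.5%). They were Sox2, Pou5f1, Nanog, Klf5, Esrrb, Tbx3, Sall1, Mycn, Jarid2, Rif1 and Mybl2. The list also had more regions of any width, 32 of 34 genes with at least 1, against 45.5% of all protein-coding genes. Of 93 distinct regions within 50 kb of its genes, 14 were wide (15.1%, 8.48 to 24.0%), against 5.40% of all regions. The list and the wide regions were both chosen with earlier results of these data known, so this is a description and not independent evidence.

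At Sox2 the second wide region, 563 bp, began 1.37 kb beyond the end of the widest. Pou5f1, which encodes OCT4, had wide regions of 679 bp, 1.96 kb before its start, and 613 bp at its far end. The wide region of Nanog, a homeobox factor, was 585 bp with 2 summit letters and had its midpoint 4.64 kb before the start; the region over the start itself was 471 bp and so narrower. Esrrb, an orphan nuclear receptor, held 1 wide region (623 bp) among the 6 regions within 50 kb of it, and Tbx3, a T-box factor, held 1 of 575 bp. Klf5, a Krüppel-like factor, had one of 779 bp at 26.6 kb and another of 587 bp at 196.9 kb. Rif1, a telomere and replication-timing protein, had one of 720 bp at 0.57 kb, and Jarid2, a Polycomb cofactor, one of 673 bp at 25.2 kb. Mybl2, a cell cycle factor, had regions of 698 and 556 bp within 50 kb, the narrower of them nearest to Ift52.

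**Figure D3:**
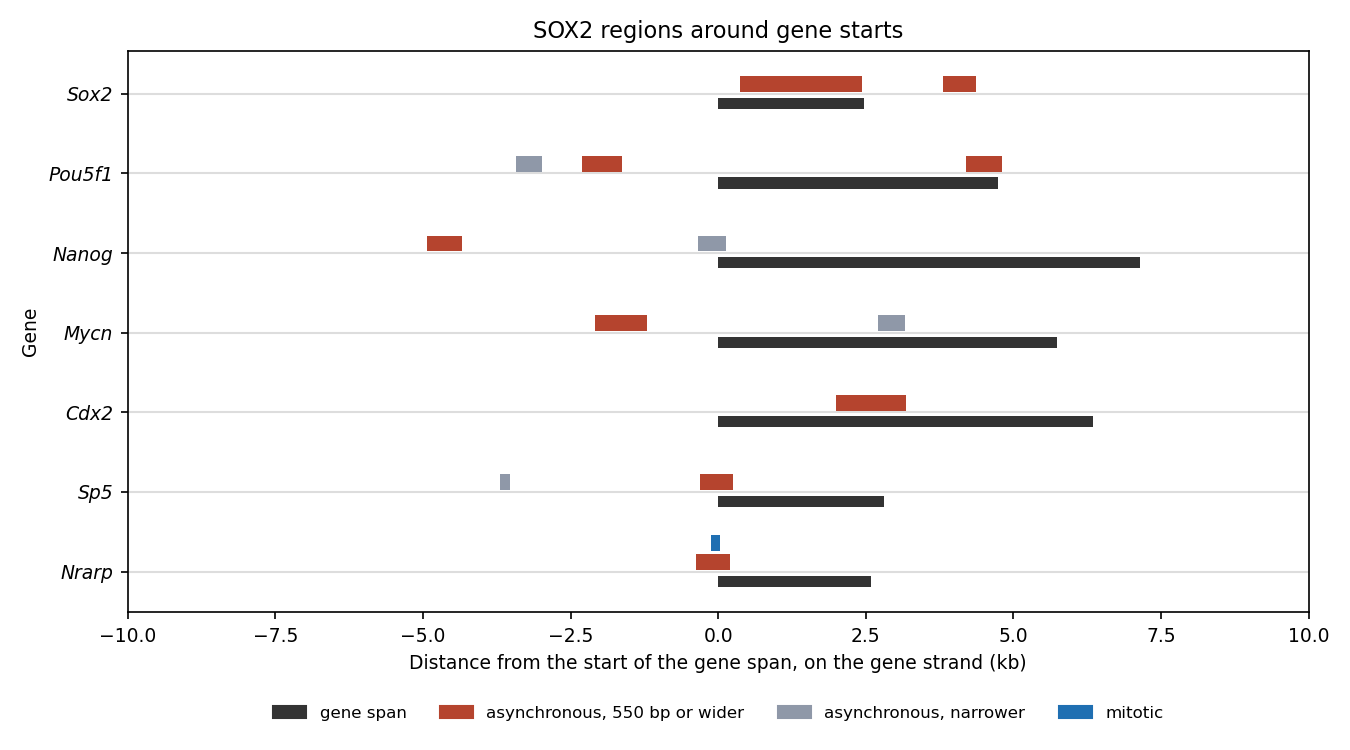
SOX2 regions within 10 kb of the start of 7 genes, as distance in kb from the start of the gene span on the strand of the gene. Dark bars are gene spans, red bars asynchronous regions of 550 bp or more, grey bars narrower ones and blue bars mitotic regions. Wide regions cover the starts of Sp5 and Nrarp, and that of Nrarp holds the mitotic region drawn here.

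In the FGF-ERK list, 6 of 24 genes had a wide region within 50 kb (25%, interval 9.77 to 46.7%), against 3.55% of all protein-coding genes. Any region was near 83.3% of the listed genes, against 45.5% of all protein-coding genes. Of the 41 regions near the list, 6 were wide (14.6%, 5.57 to 29.2%), against 5.40% of all regions. This list too was chosen with earlier results of these data known, and no difference was tested. Fgfr2, an FGF receptor, held a region of 576 bp, Etv5, an ETS factor induced by ERK, 566 bp, and Garem1, which encodes an adaptor for growth factor receptors, 1015 bp. Etv1 had one of 631 bp 1.48 kb before its start. The feedback inhibitors Spred1 and Spry2 had 677 bp at 1.12 kb and 649 bp at 24.1 kb, both before the start. Dusp6, a phosphatase of ERK, had 2 wide regions beyond its end, of 633 bp at 86.2 kb and 820 bp at 193.7 kb, and the 2 regions at the gene itself were 257 bp each. Dusp4, a related phosphatase, had one of 582 bp at 74.7 kb. These 2 genes were outside the 50 kb used for the count.

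In the Wnt list 4 of 30 genes had one (13.3%, interval 3.76 to 30.7%): Tcf7 (702 bp), Tcf7l1, a repressor of Wnt targets (589 bp, inside), Sp5 and Vangl1, a planar polarity gene (1137 bp, inside). Any region was found near 76.7% of these Wnt genes, and 4 of the 51 regions near them were wide (7.84%, 2.18 to 18.9%), an interval that holds the 5.40% of all regions. In the Nodal and BMP list 3 of 24 did (12.5%, interval 2.66 to 32.4%). Lefty1 and Lefty2, Nodal antagonists, shared 1 region of 570 bp, and Id3, a BMP target, had one of 619 bp at 1.53 kb. Of the 27 regions near this list, 2 were wide (7.41%, 0.910 to 24.3%), an interval that holds 5.40%. The Notch list had 2 of 22, the ligand gene Dll1 (595 bp, 3.84 kb before the start) and Nrarp, and 2 of 35 regions near its genes were wide (5.71%, 0.70 to 19.2%). Rbpj, the DNA-binding factor of Notch, had one of 726 bp at 88.6 kb. The LIF list had 1 of 14, a region of 780 bp inside the receptor gene Lifr, and Il6st fell 1 bp short of the minimum.

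Among developmental lists, the neural list had 4 of 30 genes (13.3%, interval 3.76 to 30.7%): Rax (596 bp), Meis2 (664 bp), Zfp521 (569 bp) and Nkx2-2 (644 bp). Of the 37 regions near this list, 4 were wide (10.8%, 3.03 to 25.4%), an interval that holds the 5.40% of all regions. Further out, wide regions were nearest to Pax6 (559 bp at 52.3 kb) and Zbtb20 (956 bp at 93.6 kb). The axon guidance and planar polarity list had 6 of 35 (17.1%, interval 6.56 to 33.7%), with widths of 552 to 1137 bp. They were Plxna4, Nrp1, Nrp2, Ntn1, Vangl1 and Celsr2, whose region was nearest to Sars. The genes of this list are long, with a median of 149.5 kb against 17.2 kb for all protein-coding genes, and 74.3% had a region of any width nearby. Of the 75 regions near them, 6 were wide (8%, 2.99 to 16.6%), an interval that also holds 5.40%. The formative list had 2 of 19 (10.5%, interval 1.30 to 33.1%): Zic5, 642 bp at 42.6 kb but nearest to Clybl, and Etv5. The trophectoderm list had 2 of 18 (11.1%, 1.38 to 34.7%), Cdx2 and Fgfr2. Both intervals hold the 3.55% of all protein-coding genes. Any region was near 78.9% and 61.1% of the genes of these lists, in this order. Of the regions near them, 2 of 33 (6.06%, 0.743 to 20.2%) and 2 of 22 (9.09%, 1.12 to 29.2%) were wide, and both intervals hold 5.40%. Of 20 mesendoderm genes, none had a wide region within 50 kb. A count of 0 allows at most 15% when 3 counts are taken as its limit, and 16.8% by the exact interval. Foxa2, an endoderm factor, was nearest to one of 624 bp at 137 kb. Polycomb and DNA methylation genes had 4 of 32 (12.5%, interval 3.51 to 29.0%): Jarid2, Mtf2 (601 bp), Cbx7 (829 bp, nearest to Apobec3) and Tet3 (584 bp). Any region was near 78.1% of these genes. Of the 45 regions near them, 4 were wide (8.89%, 2.48 to 21.2%), an interval that holds 5.40%. Chromatin remodelling genes had 1 of 24, Smarca2.

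Lists taken for comparison had 0 or 1 gene each, as did the mesendoderm, LIF and chromatin remodelling lists. The intervals of all these lists held the 3.55% of all protein-coding genes. Mitosis and cell cycle genes had 1 of 26 (3.85%, interval 0.0973 to 19.6%), Cdk6, a cyclin-dependent kinase (808 bp, 7.83 kb before the start). Housekeeping genes had 1 of 17 (5.88%, interval 0.149 to 28.7%), Actb, whose region (784 bp) was nearest to Fbxl18. Fibroblast genes also had 1 of 17, with the same share and interval, Pdgfrb (621 bp, nearest to Cdx1). Liver genes had 0 of 19, where the same limits are 15.8% and 17.6%. Over all lists, 45 of 388 distinct genes (11.6%, 8.59 to 15.2%) had a wide region within 50 kb. A region of any width was near 67.8% of the listed genes, against 45.5% of all protein-coding genes. Of the 554 regions near listed genes, 47 were wide (8.48%, 6.3 to 11.1%), against 5.40% of all regions. The lists were chosen with earlier results of these data known, and no difference was tested. Some genes stand in more than 1 list, and neighbours can share a region.

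**Figure D4:**
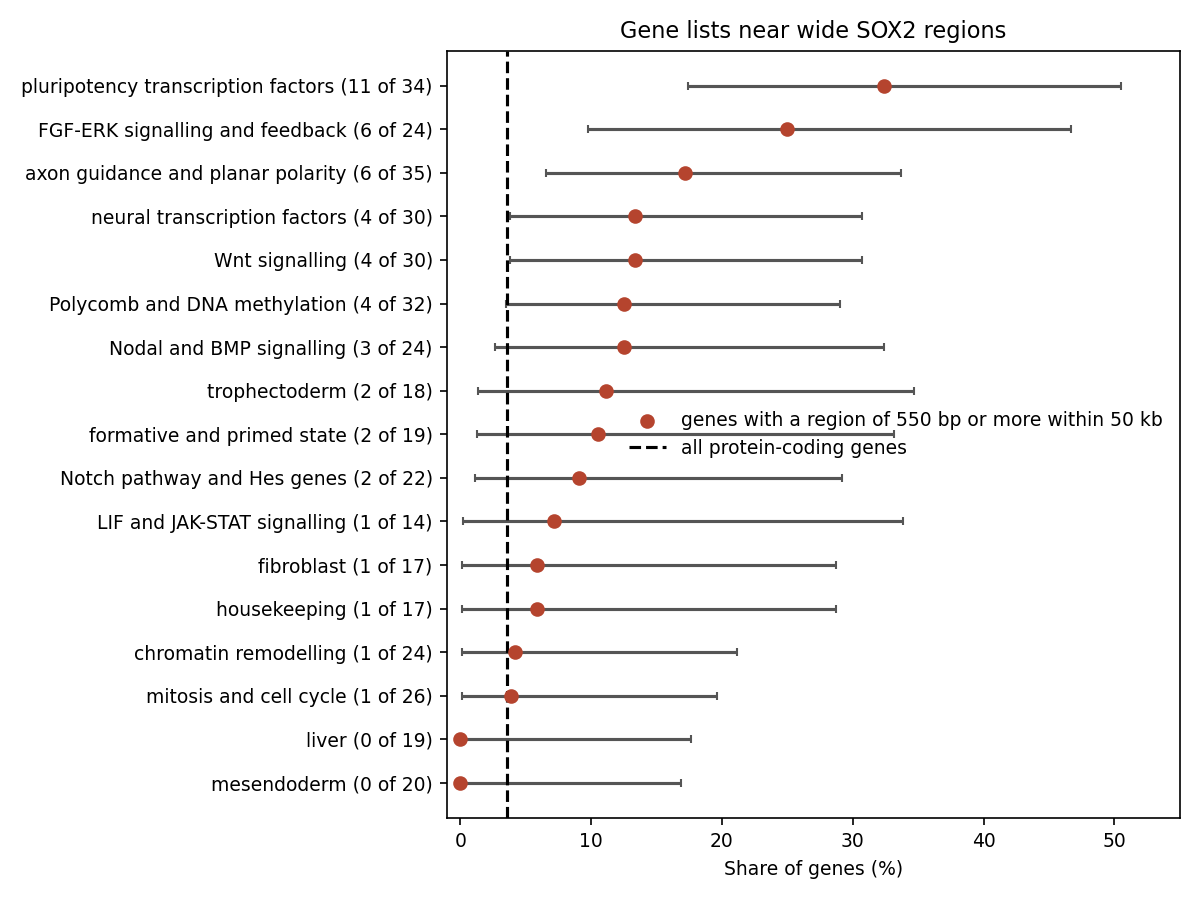
Share of the genes of each list (percent) with an asynchronous region of 550 bp or more within 50 kb of the gene span. Points are shares, bars exact 95% intervals, and the dashed line is the share of all protein-coding genes, 3.55%. The list labelled pluripotency transcription factors, which also holds other factors such as Rif1 and Jarid2, stands highest, at 32.4%. No gene of the liver and mesendoderm lists is counted.

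The wide regions had 515 distinct nearest genes, 2.35% of the protein-coding genes. Of these, 475 were nearest to 1 wide region, 36 to 2 and 4 to 3. The 4 were Sox5, Rybp, Sgk1 and Ntm. Sox5, a SOX factor of the group D, held 3 wide regions of 779, 779 and 588 bp among 11 regions, all inside a gene of 953.9 kb. Ntm, a neural cell adhesion gene of 968.5 kb, held 3 of 551 to 594 bp. The regions of Rybp, a subunit of Polycomb complex 1, were 751, 633 and 560 bp wide and lay 48.5, 91.0 and 133 kb from it. Sgk1, a kinase regulated by serum and glucocorticoids, had 564 and 737 bp before its start and 562 bp inside. Genes with 2 included Arid5b, Sulf1, Tns3, Ebf1, Foxn3, Grin2b and Dusp6.

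Members of the SOX family were nearest to 8 wide regions (1.43%, interval 0.620 to 2.80%) and to 49 narrower ones (0.50%, 0.370 to 0.661%). The intervals overlapped, and the difference was not tested. Of the 8 wide regions, 3 were nearest to Sox5 and 2 to Sox2, so they are not separate genes. Besides Sox2 and Sox5, Sox6 held one of 703 bp, Sox14 had one of 631 bp 1.47 kb beyond its end, and Sox9 one of 610 bp at 23.6 kb. None of the 6 regions of Sox13 reached the minimum, and neither did any region nearest to Sox1, Sox4, Sox11, Sox17, Sox21 or Sox30. Genes with zinc finger names were nearest to 14 wide regions (2.50%) and 2.28% of the narrower, and solute carrier genes to 11 (1.97%) and 2.13%. No wide region was nearest to a Hox cluster or ribosomal protein gene; a count of 0 among 559 regions has an exact upper limit of 0.658%, and narrower regions had 0.0817% and 0.245%. Olfactory receptor genes, 5.07% of the annotated genes, were nearest to 3 wide regions (0.537%, interval 0.111 to 1.56%) and 38 narrower ones (0.388%, 0.275 to 0.532%).

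The next asynchronous region was within 20 kb of 188 wide regions (33.6%, interval 29.7 to 37.7%) and 2789 narrower ones (28.5%, 27.6 to 29.4%), a difference that was not tested. The median distance to it was 42.9 kb (quartiles 11.7 and 117.8 kb) and 50.3 kb (16.6 and 128 kb). Among successive wide regions, 3 pairs were within 5 kb and 11 within 20 kb. The closest were 2 regions of 659 and 575 bp, 0.568 kb apart and 422 kb beyond the end of Tox3, their nearest gene. Next came 2 regions of 562 and 564 bp 1.15 kb apart beyond the end of B3gnt7, and the pair at Sox2. Pairs at Tns3, Pou5f1, Ccr1 and St6galnac1 were 5.64 to 7.30 kb apart. By chromosome, the wide share of regions, with Y left aside (0 of 2), ran from 2.89% on X (5 of 173, interval 0.945 to 6.62%) to 7.36% on chromosome 3 (38 of 516, 5.26 to 9.97%), which carries Sox2, and each pair of chromosomes had overlapping intervals.

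In mitotic cells, 2 of the 559 wide regions were overlapped by a region (0.358%, interval 0.0434 to 1.29%), against 7 of 9792 narrower ones (0.0715%, 0.0287 to 0.147%) and 0.0869% of all regions. A wide region is met more often by its size alone, and per covered Mb the counts were 5.47 and 2.37 overlapped regions. With 2 regions, a difference between wide and narrower was not detectable. One lay over the start of Nrarp. The mitotic region there, chr2:25180627-25180782, lay wholly within the asynchronous one, chr2:25180384-25180960, and covered the shortened composite site of that gene. The other lay beside Abcg1, a cholesterol exporter, where a mitotic region of 116 bp was wholly inside an asynchronous region of 737 bp. The midpoints were 32 and 80 bp apart. Both wide regions were at gene ends and had no summit letter. Of the listed pluripotency factors, 12 were the nearest gene of a wide region, and none of these regions was overlapped. With 0.0869% of all regions overlapped, none among so few says nothing about these genes. The nearest mitotic regions to such ones were 8.14 kb from the wide region of Sall1, a zinc finger factor, and 27.2 kb from that of Mybl2.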

How the data were processed

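SOX2 ChIP-seq was compared in asynchronous and mitotic E14 cells. Bowtie2 (2.2.1), MACS2 and build mm10 are named per the submitters' processing notes, with no version for MACS2 given in the sources used here. Regions were called, per the deposited names, on 3 pooled replicates against input, with q-value tags read as 0.01 (asynchronous) and 0.05 (mitotic). The lists as deposited give other values than signal: the start and end of each peak in bp, without scores or depth. Where replicates are pooled, nothing separates culture from technical spread.

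Starts were converted to positions counted from 1, and 181 of 10532 asynchronous entries were merged into others with equal coordinates. Nearest genes are the 21887 protein-coding RefSeq genes of GRCm38.p6, by midpoint, the shortest gene where several contain it. Strand was known for 79.9% of these, from the promoter table. Annotated starts and promoter windows on chromosome 18 were not used here, and some genes on other chromosomes also had none. All 388 listed genes matched. Overlaps needed 1 bp. Steps were tested on simulated regions. Python 3.11.15, numpy 2.4.6, pandas 2.3.3, scipy 1.17.1 and matplotlib 3.10.9 were used.

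The members and lists were chosen with earlier results of these data known. Named genes are those nearest to the 30 widest regions, to regions shared with mitosis or with 3 letters, near the minimum, near several wide regions, covering starts, and up to 6 per list by width. Not every gene selected this way is reported. Others, such as Sox13, Dusp4, Rbpj, Pax6, Foxa2, Exoc1, the further members of the longer lists and the SOX family, were chosen after their values were seen. The planned motif search in region centres was replaced by promoter windows of 250 bases.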

Additional observations from a re-analysis of the deposited data

How the results depend on the processing

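Of 31 recomputed values over 8 results, 20 stayed within their interval, their quartiles or 1.5 times of a count, and 11 moved. Only the wide value was judged, so settings that changed the narrower regions alone could not move. The median distance was judged against the quartiles of single regions, a broad range. The count of 20 therefore does not measure stability. The number of wide regions was 920 with a minimum of 500 bp and 328 with 600 bp, by construction. With 600 bp, 28 listed genes had a wide region within 50 kb and 1 wide region was overlapped in mitosis; the share with 2 or more listed summits, 19.5% here, was 29.0% with 600 bp and 13.7% with 500 bp. The share at gene ends was 9.12% with all annotated genes and 17.9% with a window of 5 kb, below the narrower regions (13.0% and 21.0%) in both. Against narrower regions of at least the median width (6.63% at gene ends), the difference shrank from -2.79 to -1.80 percentage points, and their share lay within the interval of the wide regions, 3.21 to 6.95%. The share inside genes was 50.3% and 37.4% under these settings, where the difference from the narrower regions turned from -0.632 to 0.227 and 0.399 percentage points. It also turned, to 0.863, against narrower regions of at least the median width. Further than 50 kb from any annotated gene were 6.26% of wide regions. The planned motif alternatives in region centres were not run, since only promoter sequence was used here. No paired analysis was possible because each list was called on pooled replicates, and no replicate could be left out. Depth is unknown, so its bearing on width was not tested. The promoter windows and the shortened composite were chosen after seeing the data.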
